A study of Mus musculus with 9 samples.

Results

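The motile cilium genes examined here are 50 genes for the structural parts, assembly machinery and transcriptional control of the beating cilium. They were taken as a list of symbols, chosen with earlier results of these data known, and matched to the rows of a whole-brain count table. All 50 were found among the 49315 genes of the table, and all 50 passed the filter on low counts that kept 18492 genes. RNA was sequenced with polyA selection from the individual whole brains of wild-type (WT) C57BL/6J mice. The mice were male according to the methods. The 5 young mice were 3 months old and the 4 old mice 33 months old by the sample labels, and the labels name no transgene and no treatment. Levels are given as CPM, a library's counts scaled to a common total after TMM normalization, or as TPM, in which the counts were also divided by gene length. Differences are log2 fold changes, old minus young, from edgeR's quasi-likelihood test, and a gene rose or fell where the p-value adjusted over all 18492 genes was under 0.05.

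In the brain, motile cilia stand in tufts on the ependymal cells that line the ventricles, where their beat moves cerebrospinal fluid, and cells of the choroid plexus also carry cilia. The shaft of such a cilium, the axoneme, is a ring of microtubule doublets around a central pair. Dynein arms on each doublet pull on the next, while the nexin-dynein regulatory complex, the radial spokes and the central pair control when they do so. The dyneins are put together in the cytoplasm by assembly factors before they enter the cilium, and Foxj1 and RFX transcription factors switch on the genes of this programme.

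The libraries held from 14229259 to 21150439 counts on genes, and the members together took from 3958 to 5486 of them in a library. Young replicate 4 stood apart from the other young mice in 7 activation markers of microglia and astrocytes, which summed to 716 CPM in this mouse. The sum was between 245 and 281 CPM in young replicates 1, 2, 3 and 5, and between 828 and 1088 CPM at 33 months. Calls of the genes described that were gained or lost without this mouse are given with the gene. Whole-tissue RNA does not say which cells a transcript came from, and fewer ependymal cells and less RNA per ependymal cell cannot be told apart.

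The members were rare transcripts in whole brain. Their mean TPM over the 9 mice ran from 0.165 for Dnah8 to 14.6 for Foxj1, with a median of 1.89 TPM. Next to Foxj1 the highest levels per gene length were those of the radial spoke head genes Rsph9 at 10.4 TPM and Rsph1 at 9.14 TPM and of Drc1, of the nexin-dynein regulatory complex, at 9.68 TPM. The dynein heavy chains, whose genes are very long, lay at 0.165 to 2.59 TPM. The plot of TPM by gene and mouse shows that genes of 1 complex could differ several fold in level, as Spag17 at 0.204 TPM and Spag6l at 2.47 TPM did in the central pair.

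**Figure D1:**
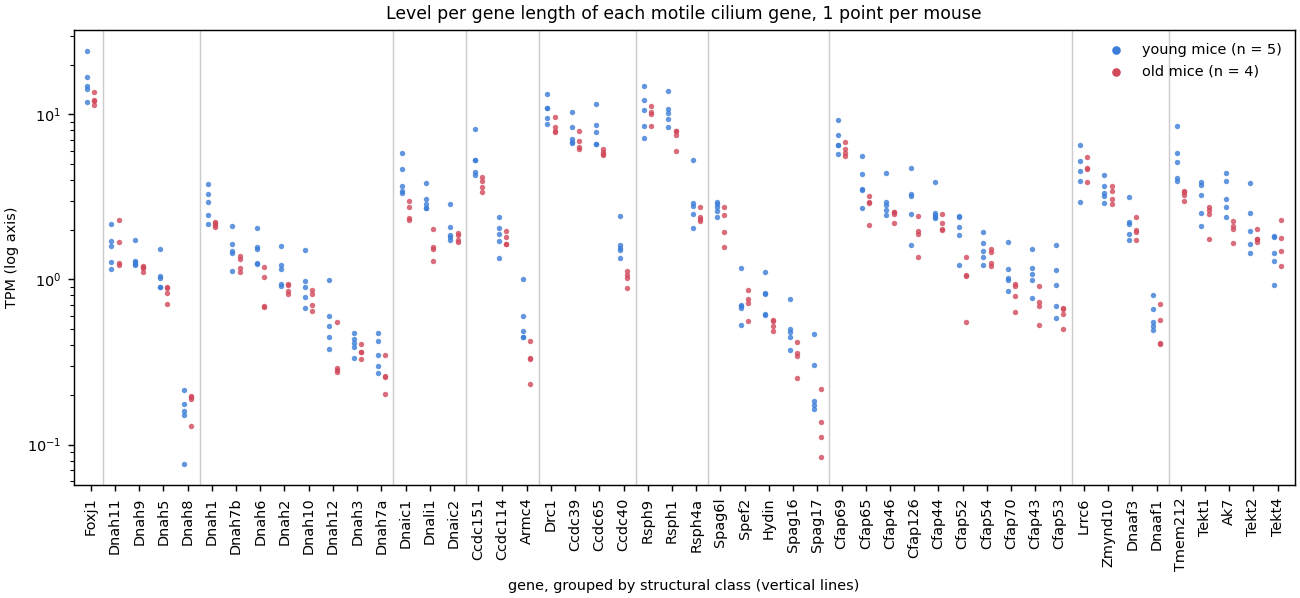
TPM (log axis) of each of the 50 motile cilium genes, grouped by structural class, with 1 point per mouse (5 young in blue, 4 old in red). Foxj1 is the highest at a mean of 14.6 TPM and Dnah8 the lowest at 0.165 TPM, and the points of the young and old mice overlap for most genes.

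As a group the members were slightly lower in old brain. Of the 50, 40 had a log2 fold change below 0, against 50% of all genes tested, and their median was -0.19, with a range of -0.78 to 0.35; the median over all genes tested was close to 0. Of the members, 4 fell and 0 rose, where 4.89% of all genes tested fell and 6.09% rose. The 4 were the inner arm heavy chain Dnah6, the outer arm intermediate chain Dnaic1, the inner arm light intermediate chain Dnali1 and Ccdc40, part of the ruler that spaces the arms. At an unadjusted p under 0.05, 14 members were lower and 0 higher, against 12.3% and 13.2% of all genes. For 5 members (Dnaic1, Dnali1, Ccdc151, Ccdc40 and Drc1) every old mouse lay below every young mouse, which held for 6.08% of all genes, and for 0 members did every old mouse lie above, against 6.5%. Only Dnali1 among the members also had an absolute log2 fold change over 0.58, a combination met by 2.5% of all genes, and downward by 0.373%. These shares are descriptions, and the list itself was not tested.

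The size of the shift depends on the scale. On log2(TPM + 1), where the median of all genes tested was itself at -0.14, 46 members were below 0, and 34 were below the median of all genes, with a median of -0.069 relative to it. The members' median level was 1.89 TPM, and adding 1 shrinks log2 differences most in genes at low TPM. On log2(TPM + 0.1) the members' median lay further below the median of all genes than on log2(TPM + 1). The part of the added value in the size of the shift was not tested. The median of the members on counts was -0.15 without old replicate 5 and -0.26 without old replicate 3, with the values for every other mouse left out in between.

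The count of members below 0 varied by structural class. All 8 inner arm heavy chains, all 3 dynein intermediate and light chains and all 4 genes of the nexin-dynein regulatory complex and ruler had log2 fold changes below 0, with medians of -0.22, -0.49 and -0.22. Of the 10 CFAP genes 9 were below 0, with a median of -0.27, and of the 5 central pair genes 4 were, with a median of -0.36. The docking complex and the radial spokes each had 2 of 3 genes below 0, at medians of -0.34 and -0.12. The docking complex was at -0.12 with 1 CPM required in 4 libraries, which left out Armc4, and the radial spokes were at -0.0014 without young replicate 3. On log2(TPM + 1) relative to the median of all genes, the central pair was at -0.028, the inner arm heavy chains at -0.042, and the docking complex and the CFAP genes each at -0.11. Adding 1 shrinks differences at low TPM, and the median levels of the central pair and inner arm heavy chains were 0.68 and 0.96 TPM. The part of the added 1 in these class values was not tested. By contrast, 2 of the 4 outer arm heavy chains and 1 of the 4 assembly factors were below 0, with medians of 0.092 and 0.059, which turned to -0.048 and -0.074 on log2(TPM + 1), both still above that scale's median of all genes. The classes hold 1 to 10 genes, and differences between them were not tested. The plot of log2 fold changes shows each member with its interval, ordered by class.

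**Figure D2:**
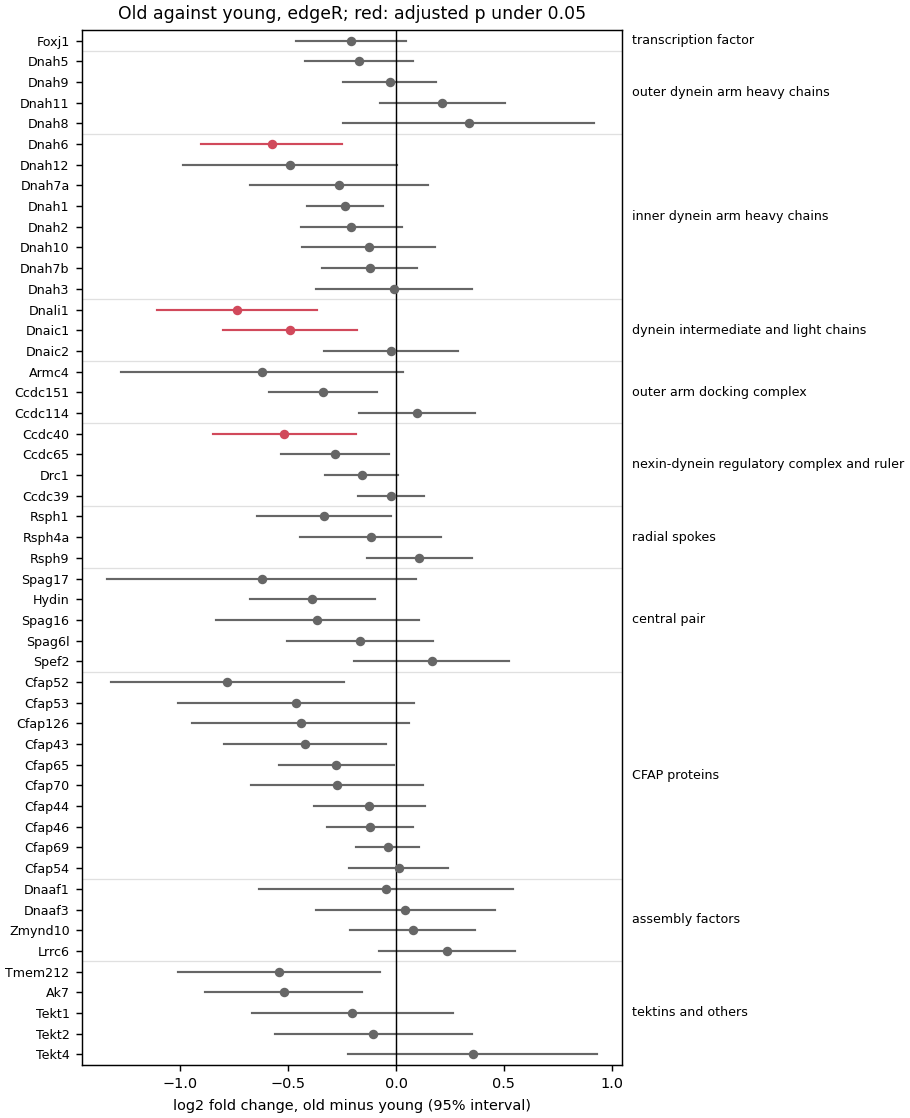
Log2 fold change of each member, old minus young, with its 95% interval from edgeR, grouped by structural class; the 4 genes with an adjusted p under 0.05 are red. Most points lie left of 0, down to -0.78 for Cfap52, while Dnah8, Dnah11, Lrrc6 and Tekt4 lie right of 0 with intervals that include it.

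Foxj1, the transcription factor that switches on the motile cilium programme, lies at chr11:116330704-116335399, minus strand (GRCm38), and no other annotated exon overlaps it. It was measured at 14.4, 14.5, 18.6, 14.3 and 19.7 CPM in the 5 young mice and 11.8, 15.4, 15.9 and 13.1 CPM in the 4 old mice. Old replicates 1 and 5 were below all young mice, and the other two were within the young range. Foxj1 had a log2 fold change of -0.21 ± 0.12 (SE, edgeR adjusted p = 0.29), with a 95% interval of -0.46 to 0.044. Of 17 other regulators of multiciliated cell formation, among them the RFX factors, Gmnc and Myb, 15 were tested and 0 rose or fell in edgeR's test, with 1 lower and 3 higher at an unadjusted p under 0.05. Their median log2 fold change was 0.029, and 4 of the 15 were below 0. The lowest p belonged to Rfx1 at 0.17 ± 0.055 (edgeR adjusted p = 0.058), which passed the threshold without old replicate 3 (0.033) or old replicate 4 (0.030), Myb at -0.59 ± 0.22 (edgeR adjusted p = 0.087) and Gmnc at 0.58 ± 0.22 (edgeR adjusted p = 0.093). E2f4 rose without old replicate 3 (0.036).

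RFX factors bind a DNA motif called the X-box, inverted arms around a short spacer, which is common in promoters of cilium genes. RefSeq promoter windows (GRCm38.p6, 250 bases before to 50 bases after the annotated start) were found for 40 of the 50 members. The X-box was searched on both strands as the arm GTTGC, a spacer of any 3 or 4 bases and the arm GNAAC, where N is any base. It was present in 12 of the 40 windows (30.0%), against 1.52% of the windows of 27025 genes. The shorter RFX motif GTTGCC, which can lie within an X-box, was in 37.5% of the members' windows and 14.1% of all. The forkhead core TGTTTAC, the kind of motif bound by Foxj1, was in 5.0% and 4.05%, and the CCAAT box in 45.0% and 41.1%. The motifs were chosen after the sequences had been read, and a match is a description of the letters, not of binding. The members with the X-box were Ccdc151, Cfap44, Dnah6, Dnah7a, Dnah7b, Dnah9, Dnaic1, Dnaic2, Hydin, Spag16, Tekt2 and Tekt4. They had a median log2 fold change of -0.19 with 11 of 12 below 0, and the 28 windows without it had a median of -0.19 with 21 of 28 below 0. Of the genes that fell, Dnah6 and Dnaic1 had an X-box and Dnali1 and Ccdc40 had none.

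The X-boxes of the 10 members other than Dnah6 and Dnaic1 are shown 5′ to 3′ on the strand of the gene, with 8 bases on each side and the X-box in capitals, to show what was matched. The windows are chr11:66168613-66168641, minus strand (Dnah9), chr1:53706821-53706849, minus strand (Dnah7a), chr1:46066821-46066849, plus strand (Dnah7b), chr11:114727378-114727406, plus strand (Dnaic2), chr9:22002617-22002645, minus strand (Ccdc151), chr8:110266948-110266977, plus strand (Hydin), chr1:69826859-69826888, plus strand (Spag16), chr16:44394764-44394793, plus strand (Cfap44), chr4:126325697-126325725, minus strand (Tekt2), chr17:25471546-25471574, plus strand (Tekt4, first) and chr17:25471582-25471611, plus strand (Tekt4, second). Tekt4 held both spacers. RefSeq starts can differ from those of GENCODE, and the X-boxes of Dnah7b and Tekt4 lie inside the GENCODE genes. That of Ccdc151 lies partly inside. The shown bases of Dnah7a and Dnah7b are the same, and these genes are close copies, and the study counted only uniquely mapped reads, so the split of their counts is uncertain.
Dnah9: ttccaccaGTTTCCCAGCAACaacgacgc
Dnah7a: gccagtttGTTGCTTAGCAACgaatcgac
Dnah7b: gccagtttGTTGCTTAGCAACgaatcgac
Dnaic2: cggccaggGTTGCTAGGCAACtggtaaac
Ccdc151: gggaggaaGTTACTTAGCAACcgggagat
Hydin: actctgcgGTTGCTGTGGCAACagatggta
Spag16: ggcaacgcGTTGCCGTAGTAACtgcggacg
Cfap44: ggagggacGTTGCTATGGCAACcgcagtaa
Tekt2: agggggcgGTTGCTCGGCAACcagagccg
Tekt4, first: gtgaccctGTTGCTCAGCAACaggaggca
Tekt4, second: tatacaatGTTCCTTAGGCAACcaggaacc

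For the 4 genes that fell, the 250 bases before the RefSeq start are shown 5′ to 3′ on the strand of the gene, with any X-box in capitals. The gene positions given in this report are from GENCODE, and the windows of Dnah6, Dnaic1 and Dnali1 reach into them. The X-box of Dnaic1 lies inside its GENCODE gene. They lie at chr6:73221632-73221881, minus strand (Dnah6), chr4:41569544-41569793, plus strand (Dnaic1), chr4:125065658-125065907, minus strand (Dnali1) and chr11:119228322-119228571, plus strand (Ccdc40). Their GC content ran from 50% for Dnali1 to 76.4% for Ccdc40, and the X-boxes of Dnah6 and Dnaic1 are near the 3′ end of the window.
Dnah6: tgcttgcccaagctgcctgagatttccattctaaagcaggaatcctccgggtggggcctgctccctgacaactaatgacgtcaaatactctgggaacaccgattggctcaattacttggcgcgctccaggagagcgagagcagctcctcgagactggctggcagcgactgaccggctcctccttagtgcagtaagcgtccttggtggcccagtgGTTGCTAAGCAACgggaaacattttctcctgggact
Dnaic1: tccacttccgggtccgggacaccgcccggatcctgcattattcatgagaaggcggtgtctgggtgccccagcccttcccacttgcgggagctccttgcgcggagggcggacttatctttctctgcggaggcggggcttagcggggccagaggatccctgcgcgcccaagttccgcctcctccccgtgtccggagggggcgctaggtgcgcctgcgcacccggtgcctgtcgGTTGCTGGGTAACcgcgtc
Dnali1: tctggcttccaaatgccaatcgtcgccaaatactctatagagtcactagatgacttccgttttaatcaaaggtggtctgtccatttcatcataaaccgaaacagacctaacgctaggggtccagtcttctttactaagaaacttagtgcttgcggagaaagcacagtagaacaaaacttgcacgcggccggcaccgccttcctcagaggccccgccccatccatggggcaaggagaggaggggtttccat
Ccdc40: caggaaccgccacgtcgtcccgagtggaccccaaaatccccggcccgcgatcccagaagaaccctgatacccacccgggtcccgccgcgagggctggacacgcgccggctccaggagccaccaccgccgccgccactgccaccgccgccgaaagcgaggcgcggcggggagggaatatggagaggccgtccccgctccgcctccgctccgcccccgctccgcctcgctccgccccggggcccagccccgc

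Assembly factors act in the cytoplasm, where they fold the dynein chains and join them into arms. Lrrc6, the member of this class with the highest log2 fold change, was measured at 3.97, 3.71, 3.99, 2.802 and 3.64 CPM in the 5 young mice and 4.57, 4.796, 4.32 and 3.35 CPM in the 4 old mice. Old replicates 1, 3 and 4 were above all young mice and old replicate 5 was within their range. Lrrc6 had a log2 fold change of 0.24 ± 0.15 (SE, edgeR adjusted p = 0.35). Dnaaf1 was measured at 0.836, 0.609, 0.5498, 0.676 and 0.618 CPM in the 5 young mice and 0.797, 0.564, 0.711 and 0.4696 CPM in the 4 old mice, and the ages overlapped. Dnaaf1 had a log2 fold change of -0.047 ± 0.28 (SE, edgeR adjusted p = 0.94), from 8 to 16 counts a library, and its estimate was above 0 without young replicate 1 (0.058) and without old replicate 5 (0.074). The other two, Zmynd10 and Dnaaf3, had log2 fold changes of 0.077 and 0.042. Exons of Tnni3 overlap Dnaaf3 on the same strand and those of Gm15873 on the opposite strand. Taf1c overlaps Dnaaf1, and Gm34106 overlaps Zmynd10, on the opposite strand. The summed level of the 4 assembly factors was 9.09, 9.02, 9.28, 8.26 and 9.45 CPM in the young and 10.1, 10.9, 10.2 and 8.1 CPM in the old mice, so that old replicate 5 was the lowest and the other old mice the highest of all.

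Outer arm heavy chains are the motors that set the beat frequency. Dnah5, the heavy chain whose loss in people is a common cause of immotile cilia, was measured at 5.85, 6.36, 7.01, 6.42 and 6.24 CPM in the 5 young mice and 5.47, 6.91, 5.75 and 4.58 CPM in the 4 old mice. Old replicates 1, 4 and 5 lay below all young mice and old replicate 3 near the top of their range. Dnah5 had a log2 fold change of -0.17 ± 0.12 (SE, edgeR adjusted p = 0.40). Dnah11 was measured at 8.52, 9.63, 9.21, 7.68 and 8.28 CPM in the 5 young mice and 9.67, 8.89, 7.88 and 13.7 CPM in the 4 old mice, with the highest level in old replicate 5, and had a log2 fold change of 0.21 ± 0.14 (SE, edgeR adjusted p = 0.35). Exons of Cdca7l overlap Dnah11 on the opposite strand. Dnah8, a heavy chain best known from sperm, was measured at 0.941, 1.22, 0.687, 1.01 and 0.494 CPM in the 5 young mice and 0.744, 1.34, 1.26 and 1.17 CPM in the 4 old mice, from 8 to 23 counts. The ages overlapped for Dnah8, which had a log2 fold change of 0.34 ± 0.28 (SE, edgeR adjusted p = 0.48). Dnah9 was at -0.030, so that none of the 4 chains passed the test in either direction.

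Inner arm heavy chains shape the bend of the cilium. Dnah6 (chr6:73017606-73221651, minus strand), which has an X-box, was measured at 7.68, 6.47, 7.97, 7.54 and 9.02 CPM in the 5 young mice and 5.42, 4.37, 7.004 and 3.76 CPM in the 4 old mice. All old mice except replicate 4 were below all young mice. The means were 7.74 ± 0.914 CPM (SD, n = 5) in young and 5.14 ± 1.42 CPM (SD, n = 4) in old brain, and Dnah6 fell with a log2 fold change of -0.58 ± 0.15 (SE, edgeR adjusted p = 0.023) and a 95% interval of -0.90 to -0.25. The call was lost without young replicate 5 (adjusted p = 0.061, edgeR), old replicate 3 (0.069) or old replicate 5 (0.071). The predicted gene Gm20560 overlaps Dnah6 on the opposite strand. Dnah1, the inner arm chain with the highest TPM, was measured at 15.6, 14.8, 14.2, 12.7 and 14.02 CPM in the 5 young mice and 11.4, 13.5, 12.6 and 11.04 CPM in the 4 old mice. Old replicates 1, 4 and 5 were below all young mice, and Dnah1 had a log2 fold change of -0.24 ± 0.083 (SE, edgeR adjusted p = 0.076), which passed the threshold without young replicate 4 (0.040) or old replicate 3 (0.049).

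Dnah3 was the inner arm chain closest to no difference, at 2.3, 1.88, 1.99, 2.71 and 2.47 CPM in the 5 young mice and 1.86, 2.54, 2.298 and 2.41 CPM in the 4 old mice. The young and old mice overlapped, and Dnah3 had a log2 fold change of -0.010 ± 0.17 (SE, edgeR adjusted p = 0.98). The remaining inner arm chains were Dnah12 at -0.49 ± 0.24 (edgeR adjusted p = 0.20), Dnah7a at -0.27, Dnah2 at -0.21, Dnah10 at -0.13 and Dnah7b at -0.12. None of these 5 passed the test with all mice, and Dnah12 did without old replicate 4 (edgeR adjusted p = 0.024). Exons of other genes overlap Dnah2, Dnah3 and Dnah10 on the opposite strand.

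The intermediate and light chains hold the heavy chains to the arm and link them to regulators. Dnali1 (chr4:125055338-125065703, minus strand), a light intermediate chain of the inner arms, was measured at 2.25, 2.54, 2.41, 2.66 and 2.59 CPM in the 5 young mice and 1.33, 1.34, 1.92 and 1.35 CPM in the 4 old mice. No old mouse reached the lowest young value, and old replicate 4 stood above the other old mice. The means were 2.49 ± 0.164 CPM (SD, n = 5) in young and 1.48 ± 0.288 CPM (SD, n = 4) in old brain, and Dnali1 fell with a log2 fold change of -0.74 ± 0.18 (SE, edgeR adjusted p = 0.012) and a 95% interval of -1.11 to -0.37. It rests on 19 to 55 counts a library. Dnali1 passed the threshold in all 19 alternatives run for it, with adjusted p from 0.005 to 0.038. Its exons overlap those of Gnl2 on the opposite strand, and whether the libraries kept strand is not given in the sources used here.

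Dnaic1 (chr4:41569775-41638158, plus strand), an intermediate chain of the outer arm, was measured at 3.76, 5.03, 4.74, 4.35 and 4.14 CPM in the 5 young mice and 2.603, 3.74, 2.85 and 3.404 CPM in the 4 old mice. Every old mouse was below every young mouse, though old replicate 3 was close to young replicate 1. The means were 4.41 ± 0.499 CPM (SD, n = 5) in young and 3.15 ± 0.517 CPM (SD, n = 4) in old brain, and Dnaic1 fell with a log2 fold change of -0.49 ± 0.15 (SE, edgeR adjusted p = 0.040) and a 95% interval of -0.80 to -0.18. This call was lost when any of young replicates 2, 3, 4 or 5 or old replicates 1, 4 or 5 was left out, with adjusted p from 0.055 to 0.12 (edgeR). Enho overlaps Dnaic1 on the opposite strand. Its partner in the outer arm, Dnaic2, was measured at 2.93, 3.32, 3.85, 3.77 and 4.26 CPM in the 5 young mice and 3.03, 3.88, 3.78 and 3.58 CPM in the 4 old mice. The old mice lay inside the young range, and Dnaic2 had a log2 fold change of -0.023 ± 0.15 (SE, edgeR adjusted p = 0.94). The difference between the chains was not tested.

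**Figure D3:**
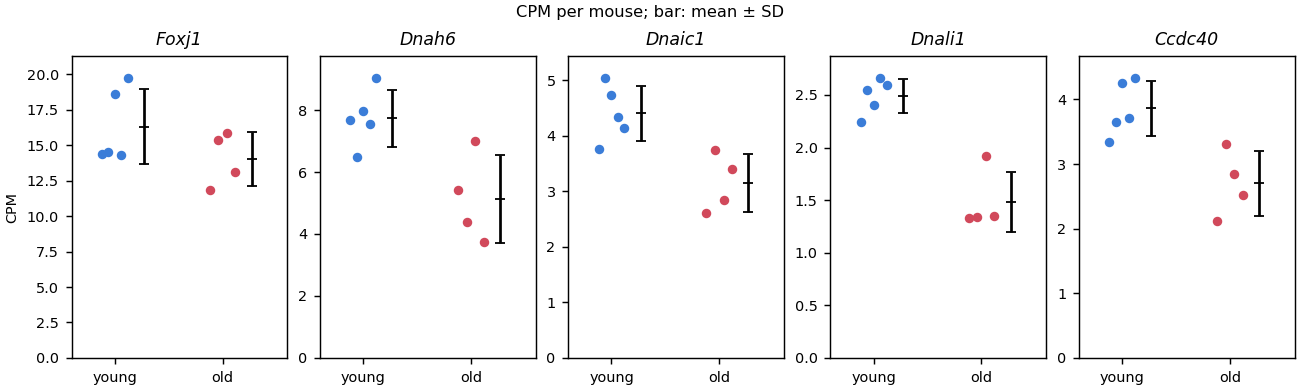
CPM of Foxj1 and of the 4 genes that fell, 1 point per mouse (5 young in blue, 4 old in red), each gene on its own linear axis from 0, with the mean and SD beside the points. For Dnaic1, Dnali1 and Ccdc40 the old points lie below the young ones, for Dnah6 old replicate 4 lies inside the young range, and for Foxj1 the ages overlap.

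The docking complex fixes the outer arms to the doublet. Ccdc151 was measured at 4.91, 5.2, 6.05, 4.93 and 5.004 CPM in the 5 young mice and 4.14, 4.16, 4.38 and 3.76 CPM in the 4 old mice. Every old mouse was below every young mouse, and Ccdc151 had a log2 fold change of -0.34 ± 0.12 (SE, edgeR adjusted p = 0.075), just outside the threshold. Armc4 was measured at 0.575, 0.609, 1.03, 0.773 and 0.927 CPM in the 5 young mice and 0.319, 0.564, 0.657 and 0.4696 CPM in the 4 old mice, on 6 to 16 counts. Old replicates 1, 3 and 5 were below all young mice, and Armc4 had a log2 fold change of -0.62 ± 0.31 (SE, edgeR adjusted p = 0.22). Ccdc114 went the other way, at 4.599, 4.48, 4.26, 3.77 and 4.63 CPM in the 5 young mice and 3.93, 4.87, 5.31 and 4.52 CPM in the 4 old mice. Old replicates 3 and 4 were above all young mice and the rest overlapped, and Ccdc114 had a log2 fold change of 0.098 ± 0.13 (SE, edgeR adjusted p = 0.68).

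Ccdc39 and Ccdc40 together form the molecular ruler along which inner arms and radial spokes are placed. Ccdc40 (chr11:119228572-119265238, plus strand) was measured at 3.34, 3.65, 4.26, 3.72 and 4.32 CPM in the 5 young mice and 2.12, 3.31, 2.85 and 2.52 CPM in the 4 old mice. Every old mouse was below every young mouse, with old replicate 3 next to young replicate 1. The means were 3.86 ± 0.4197 CPM (SD, n = 5) in young and 2.702 ± 0.504 CPM (SD, n = 4) in old brain, and Ccdc40 fell with a log2 fold change of -0.52 ± 0.16 (SE, edgeR adjusted p = 0.041) and a 95% interval of -0.85 to -0.19. No other annotated exon overlaps it. The call was lost when any of young replicates 2, 3, 4 or 5 or old replicates 1, 4 or 5 was left out, with adjusted p from 0.051 to 0.14 (edgeR). Ccdc39 was measured at 23.0, 20.7, 22.6, 22.8 and 22.6 CPM in the 5 young mice and 23.3, 24.97, 21.1 and 18.96 CPM in the 4 old mice, on both sides of the young values, and had a log2 fold change of -0.022 ± 0.073 (SE, edgeR adjusted p = 0.88) with an interval of -0.18 to 0.13. Its exons overlap those of Ttc14 on the opposite strand. The difference between the ruler genes was not tested.

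In the nexin-dynein regulatory complex, the link that turns sliding into bending, Drc1 was measured at 10.7, 11.5, 10.5, 10.7 and 11.3 CPM in the 5 young mice and 10.1, 10.3, 9.96 and 8.805 CPM in the 4 old mice. The groups did not overlap, but old replicate 3 was only just below young replicate 3, and Drc1 had a log2 fold change of -0.16 ± 0.080 (SE, edgeR adjusted p = 0.23). Ccdc65, known as DRC2, had a log2 fold change of -0.28 ± 0.12 (SE, edgeR adjusted p = 0.14).

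Radial spokes carry signals from the central pair to the dynein arms. Rsph1, part of the spoke head, was measured at 4.02, 4.92, 4.74, 4.49 and 5.31 CPM in the 5 young mice and 2.76, 4.51, 3.88 and 3.82 CPM in the 4 old mice. Old replicates 1, 4 and 5 were below all young mice, and Rsph1 had a log2 fold change of -0.33 ± 0.15 (SE, edgeR adjusted p = 0.16). Rsph9, another spoke head gene and the one with the highest TPM, was measured at 6.22, 7.69, 6.94, 6.23 and 5.13 CPM in the 5 young mice and 7.06, 6.63, 7.39 and 6.63 CPM in the 4 old mice. The old mice stayed within the wider young range. Rsph9 had a log2 fold change of 0.11 ± 0.12 (SE, edgeR adjusted p = 0.61), which turned to -0.047 on log2(TPM + 1), where the median of all genes tested was -0.14. Rsph4a was at -0.12.

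The central pair is the core on which the spokes act. Spag17 was measured at 0.941, 0.609, 1.17, 0.676 and 0.618 CPM in the 5 young mice and 0.372, 0.564, 0.821 and 0.293 CPM in the 4 old mice, from 5 to 18 counts. Old replicates 1, 3 and 5 were below all young mice, and Spag17 had a log2 fold change of -0.62 ± 0.34 (SE, edgeR adjusted p = 0.27). Its exons overlap those of Spag17os and Wdr3 on the opposite strand. Hydin, the very large projection protein whose loss stiffens the beat, had a log2 fold change of -0.39 ± 0.14 (SE, edgeR adjusted p = 0.078) and lay outside the threshold here but inside it without young replicate 2 (0.037). Spag6l was measured at 4.91, 4.92, 3.85, 5.41 and 4.88 CPM in the 5 young mice and 4.94, 5.43, 3.94 and 2.93 CPM in the 4 old mice. Here old replicate 5 was the lowest and old replicate 3 the highest mouse of all, and Spag6l had a log2 fold change of -0.17 ± 0.16 (SE, edgeR adjusted p = 0.56). Spef2 was measured at 2.51, 2.6, 3.44, 2.42 and 3.09 CPM in the 5 young mice and 3.4, 3.67, 3.17 and 2.29 CPM in the 4 old mice, again with old replicate 3 highest and old replicate 5 lowest. Spef2 had a log2 fold change of 0.16 ± 0.17 (SE, edgeR adjusted p = 0.59), turning to -0.015 on log2(TPM + 1), where the median of all genes tested was -0.14. Spag16 was at -0.36.

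CFAP (cilia and flagella associated protein) genes encode a mixed set, from proteins inside the doublets to parts of the central pair. Cfap52, which lies inside the doublet, had the lowest log2 fold change of all members and was measured at 2.04, 1.88, 1.65, 1.304 and 1.91 CPM in the 5 young mice and 0.956, 1.55, 1.09 and 0.528 CPM in the 4 old mice. Old replicates 1, 4 and 5 were below all young mice, with old replicate 5 at the lowest level. Cfap52 had a log2 fold change of -0.78 ± 0.26 (SE, edgeR adjusted p = 0.059), and passed the threshold without young replicate 4 (0.035) or old replicate 3 (0.025). On log2(TPM + 1) its difference was -0.58 (limma adjusted p = 0.0062). Exons of 9130017K11Rik overlap it on the opposite strand.

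Cfap69, the CFAP gene with the highest TPM, was measured at 21.6, 20.03, 21.4, 23.6 and 20.3 CPM in the 5 young mice and 19.3, 22.6, 19.6 and 22.1 CPM in the 4 old mice. The ages overlapped, and Cfap69 had a log2 fold change of -0.038 ± 0.069 (SE, edgeR adjusted p = 0.78) with an interval of -0.18 to 0.11. Cfap54, a central pair protein, was measured at 8.88, 8.46, 8.25, 8.12 and 8.83 CPM in the 5 young mice and 8.39, 10.9, 8.098 and 7.16 CPM in the 4 old mice. Old replicate 3 was above all other mice, and Cfap54 had a log2 fold change of 0.012 ± 0.11 (SE, edgeR adjusted p = 0.96). The other 7 CFAP genes ran from -0.46 for Cfap53 to -0.12 for Cfap46, and the lowest adjusted p of these was 0.14 for Cfap43, whose exons overlap those of Itprip on the same strand and which passed the threshold without old replicate 3 (0.029).

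Tektins line the inside of the doublets. Tekt4 was measured at 0.523, 0.775, 0.825, 1.01 and 1.24 CPM in the 5 young mice and 1.38, 1.34, 0.821 and 0.939 CPM in the 4 old mice. Old replicates 1 and 3 were above all young mice, and Tekt4 had a log2 fold change of 0.35 ± 0.27 (SE, edgeR adjusted p = 0.45), the highest estimate of the members. Tekt1 was at -0.20 and Tekt2 at -0.11. Tmem212, a membrane protein that is used as a marker of ependymal cells, was measured at 1.36, 1.11, 1.79, 1.35 and 1.85 CPM in the 5 young mice and 0.956, 1.13, 1.09 and 0.8805 CPM in the 4 old mice. Old replicates 1, 4 and 5 were below all young mice, and Tmem212 had a log2 fold change of -0.54 ± 0.22 (SE, edgeR adjusted p = 0.13). On log2(TPM + 1) it passed the threshold, with a difference of -0.57 (limma adjusted p = 0.037). Ak7, an adenylate kinase of the cilium, had a log2 fold change of -0.52 ± 0.17 (SE, edgeR adjusted p = 0.061), and passed the threshold without young replicate 1 (0.0495) or young replicate 4 (0.0499).

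The old mice differed among themselves. The summed level of the 50 members was 269.6, 270.1, 294, 265 and 292 CPM in the young and 236, 279.6, 255 and 232 CPM in the old mice. Old replicate 3 lay among the young mice, and old replicates 1, 4 and 5 lay below all of them. Of the 50 members, 32 were below every young mouse in old replicate 5, 27 in old replicate 1, 20 in old replicate 4 and 12 in old replicate 3. The share of all genes below every young mouse was not counted for single old mice. These counts therefore only compare the old mice with each other. Old replicate 3 was the highest of the old mice in 31 members and old replicate 5 the lowest in 23. The map of members by mouse shows this as columns of blue that are broken in the row of old replicate 3. Without old replicate 5, 1 member fell (Dnali1) and 37 were below 0, and without old replicate 3, 6 fell (Dnah1, Dnaic1, Dnali1, Ccdc40, Cfap43 and Cfap52) and 42 were below 0. Of all genes tested, 3.31% fell without old replicate 5 and 4.19% without old replicate 3, against 4.89% with all mice.

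**Figure D4:**
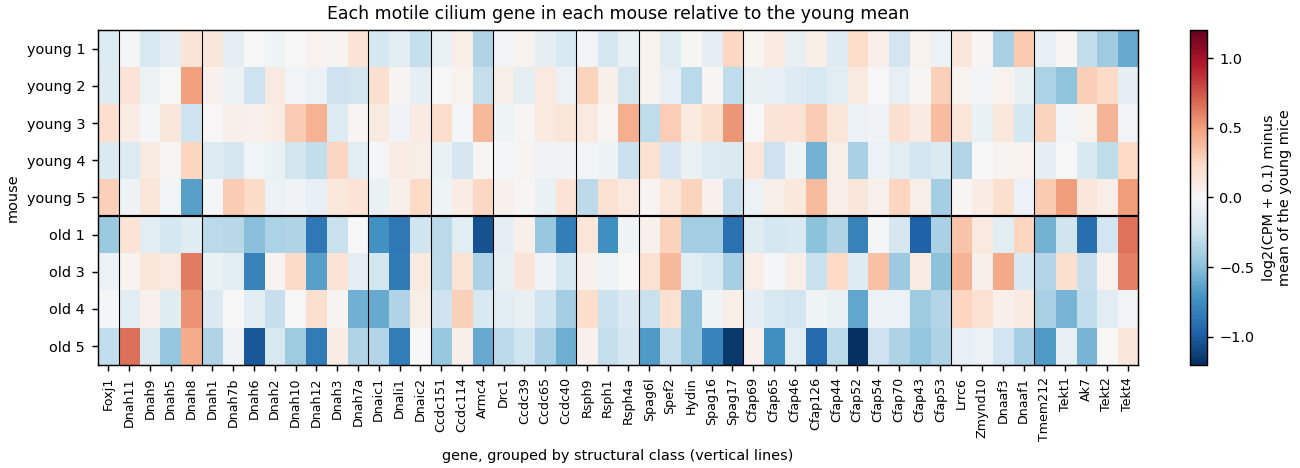
Log2(CPM + 0.1) of each member in each mouse minus the mean of the 5 young mice (colour, blue lower and red higher), with members grouped by class along the x axis and mice in rows, young above the black line. The rows of old replicates 1 and 5 are the bluest, with 27 and 32 members below all young mice, and that of old replicate 3 the least, with 12. The share of all genes was not counted for single mice.

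Further genes of the motile cilium that are not members were measured alongside. Of 57, 49 were tested, 38 were below 0 and the median was -0.15. In this list Cfap61, of the radial spoke base, fell with a log2 fold change of -0.68 ± 0.19 (SE, edgeR adjusted p = 0.030), and Cfap45, inside the doublet, with a log2 fold change of -0.53 ± 0.16 (SE, edgeR adjusted p = 0.044). Cfap61 lost its call with 6 of the 9 mice left out in turn, and Cfap45 with 7, young replicate 4 (0.066) among them. The adjusted p of the lost calls was 0.053 to 0.088 for Cfap61 and 0.057 to 0.13 for Cfap45 (edgeR). Dnah14, an axonemal dynein heavy chain, rose, from 1.52, 1.77, 2.34, 1.69 and 2.16 CPM in the young to 3.24, 2.75, 3.72 and 3.29 CPM in the old mice. Every old mouse was above every young mouse, and Dnah14 had a log2 fold change of 0.80 ± 0.17 (SE, edgeR adjusted p = 0.0056), which passed the threshold with each mouse left out (0.006 to 0.021). The transport machinery that motile and primary cilia share had a median near 0. All 28 genes of intraflagellar transport and the BBSome were tested, with 16 below 0 and a median of -0.067, and in this list the kinesin subunit Kif3a fell by 0.13 on the log2 scale (edgeR adjusted p = 0.023), a call that was lost without young replicate 1 (0.063), old replicate 4 (0.077) or old replicate 5 (0.056). Neurons and glia, which carry primary cilia, also express these genes.

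Ependymal markers that are not among the members were checked against the label of the cells, and this list may still hold genes of the cilium. Of 12, 11 were tested, 8 were below 0 and the median was -0.20. Ccdc153 fell, from 3.45, 3.76, 4.26, 2.802 and 4.76 CPM in the young to 2.18, 2.05, 2.41 and 1.76 CPM in the old mice, with a log2 fold change of -0.84 ± 0.18 (SE, edgeR adjusted p = 0.0053). The ages did not overlap for Ccdc153, and its call held with each mouse left out. Fam216b had a log2 fold change of -0.79 ± 0.25 (SE, edgeR adjusted p = 0.052), which passed the threshold without young replicate 3 (0.048), young replicate 4 (0.046) or old replicate 4 (0.039). Tppp3, also expressed by oligodendrocytes and choroid plexus, was at 0.20 ± 0.17 (edgeR adjusted p = 0.51). The 12 markers summed to 69.1, 77.8, 94.97, 79.8 and 92.1 CPM in the young and 84.6, 87.3, 104 and 70.9 CPM in the old mice, mostly from Tppp3. This sum did not separate the ages.

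Other ciliated tissue could enter a whole-brain sample. All 12 choroid plexus markers were tested and 0 rose or fell in edgeR's test, with 1 lower and 1 higher at an unadjusted p under 0.05. Prlr fell without young replicate 1 (0.048) or old replicate 3 (0.043) and Aqp1 rose without old replicate 1 (0.018). Their median log2 fold change was -0.027. They summed to 578, 642, 745, 578 and 708 CPM in the young and 655, 724, 794 and 475 CPM in the old mice, mostly from transthyretin (Ttr). The mouse with the lowest sum, old replicate 5, was also the lowest in the members, while old replicate 4 was the highest in the choroid plexus markers and below the young mice in the members. Of 10 olfactory and airway epithelium markers, 4 passed the filter and 0 rose or fell in edgeR's test, also at an unadjusted p under 0.05, while Stoml3 rose without young replicate 2 (0.036). They summed to 6.43, 12.6, 7.01, 6.09 and 7.23 CPM in the young and 12.3, 13.05, 7.82 and 20.4 CPM in the old mice. Omp, the marker of mature olfactory sensory neurons, was measured at 0.418, 5.09, 0.481, 0.435 and 0.6795 CPM in the 5 young mice and 3.24, 5.92, 0.547 and 11.3 CPM in the 4 old mice, high in young replicate 2 and old replicates 1, 3 and 5. Scgb1a1, the club cell marker of the airway, had 0 counts in every library, and Bpifa1, a secreted protein of nasal and airway epithelium, had from 0 to 19 counts, with the highest in old replicate 1. The part of choroid plexus or olfactory tissue in the members' values was not tested.

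Marker lists of other cells in the tissue were measured beside the members. Of 12 whole brain markers, all tested, 6 were below 0 at a median of 0.017, and Mbp, of myelin, rose with a log2 fold change of 0.26 ± 0.064 (SE, edgeR adjusted p = 0.019), a call that was lost without old replicate 3 (0.060). Of 8 subventricular progenitor and neuroblast markers, which stand for the zone next to the ependyma, 7 were tested and 3 were below 0, and Sox11, of immature neurons, fell with a log2 fold change of -0.31 ± 0.058 (SE, edgeR adjusted p = 0.0028). Their sum was highest in old replicate 5, at 171 CPM, and next in young replicate 2, at 135 CPM. All 7 activation markers of microglia and astrocytes were above 0, and 2 of them rose, Lgals3bp with 1.44 ± 0.14 (edgeR adjusted p = 0.00028) and C4b, whose close copy makes its counts uncertain, with 2.78 ± 0.46 (edgeR adjusted p = 0.0099). Without young replicate 4 all 7 rose (edgeR). The part of these cells in the members' values was not tested.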

How the data were processed

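Whole-brain RNA was sequenced from 5 young and 4 old mice, each taken as a separate replicate. According to the study's methods, reads were trimmed with Trimmomatic, aligned to GRCm38 with STAR, and uniquely mapped reads on exons were counted with featureCounts. The authors deposited raw counts per gene, which carry the main results. They also deposited normalized counts, a signal in which each library was divided by a size factor, and TPM values, both used for alternatives. Each of these held 1 column, named as an old replicate, that matched no sample of the list used here and was not analysed.

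From the counts, edgeR 4.0.16 (R 4.3.3) kept genes with filterByExpr (minimum count 10, minimum total count 15), scaled libraries with TMM and compared the ages with the robust quasi-likelihood test and Benjamini-Hochberg adjustment over 18492 genes. Log2 CPM used a prior count of 2. The biological coefficient of variation was 6.71% and the median SE of a log2 fold change 0.085, against 0.069 to 0.34 for the members. The script was tested on simulated data. Libraries of an age differed by more than sampling noise (chi-square per degree of freedom from 4.05 to 22.2). The highest values, 15.1, 22.2 and 17.4, were for young replicate 3 against young replicates 2, 4 and 5. The members summed to 219 TPM in young replicate 3 and to 124 to 154 TPM in the other young mice. Deviations of same-numbered young and old mice had correlations from -0.12 to 0.17 (the highest for replicate 1), against -0.22 to 0.16 for pairs of different numbers. Alternatives used DESeq2 1.42.0, limma 3.58.1, other filters, a replicate block and each mouse left out. Symbols, positions and overlapping exons came from GENCODE M21, promoters from RefSeq.

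The members and lists were chosen with earlier results of these data known. Members were named with every mouse's value if they were Foxj1, had an adjusted p under 0.05, or had the highest TPM or the lowest or highest log2 fold change of their class (28 members). The other 22 had log2 fold changes from -0.52 to 0.077 and adjusted p of at least 0.061. Of other lists, up to 3 genes with the lowest p were named, and others were named after their values were seen. Lists of neuroblast, whole brain and activation markers described the samples.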

Additional observations from a re-analysis of the deposited data

Results flagged for a closer look

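Of 98 groups of 4 or 5 mice examined for a member, a class or a marker list, 11 held a mouse far from the others. Chance gives about 4.9 if the values are normally distributed. The groups overlap, since members were examined singly and within their classes. Whether 11 exceeds chance was not tested. The ratio given is Dixon's, the distance from this mouse to its nearest neighbour as a share of the group's range.

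Among members, Dnali1 in old replicate 4 (1.92 CPM against 1.33 to 1.35 CPM in the other old mice) had a ratio of 0.962. Ccdc151 in young replicate 3 (6.05 CPM against 4.91 to 5.2 CPM) had a ratio of 0.747, Ccdc39 in young replicate 2 (20.7 CPM against 22.6 to 23.0 CPM) a ratio of 0.828, and Lrrc6 in young replicate 4 (2.80 CPM against 3.64 to 3.99 CPM) a ratio of 0.712.

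Among classes, the dynein intermediate and light chains were low in young replicate 1, at a mean log2 CPM of 1.6 against 1.85 to 1.89 (ratio 0.882). The assembly factors were low in old replicate 5, at 0.82 against 1.16 to 1.201 (ratio 0.886). The tektins and other genes were high in old replicate 3, at 0.91 against 0.59 to 0.63 (ratio 0.862).

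Among marker lists, young replicate 2 was low in the summed CPM of intraflagellar transport and BBSome genes (1000.2 against 1028 to 1038, ratio 0.751), and high in the olfactory and airway epithelium markers (12.6 against 6.09 to 7.23, ratio 0.824) and the subventricular progenitor and neuroblast markers (134.8 against 92.2 to 102.5, ratio 0.756). Young replicate 4 was high in the microglia and astrocyte activation markers (716 against 245 to 281, ratio 0.923).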

How the results depend on the processing

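Among members, Dnali1 passed the threshold in all 19 alternatives run for it; Dnah6 was lost in 5, Ccdc40 in 9 and Dnaic1 in 10 of 19. The count of members that fell, 4, became 7 with every gene with a count tested (Cfap52, Cfap65 and Ak7 added) and 1 with the fold threshold. Of all genes, 3.7% and 0.373% fell in these settings, against 4.89% in the main fit. Among the 29 members without overlapping exons 1 fell, 24 were below 0 and the median was -0.20. With a mouse left out from 1 to 6 members fell, where 3.31% to 4.7% of all genes did. The 2031 genes called became 594 on log2(TPM + 1), 600 on log2(TPM + 0.1) and 463 with the fold threshold, and from 1516 to 2034 with a mouse left out. On the TPM scales Dnali1, Cfap52 and Tmem212 were called, and the cause of the difference in calls was not tested.

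The members' median of -0.19 was -0.33 on log2(TPM + 0.1), where the median of all genes was -0.16. It was -0.069 on log2(TPM + 1) relative to the median of all genes, and from -0.26 to -0.15 with a mouse left out. On log2(TPM + 1) the class medians that moved were -0.048 (outer arm heavy chains), -0.35 (nexin-dynein regulatory complex and ruler) and -0.074 (assembly factors). On log2(TPM + 0.1) they were -0.080, -0.64 (intermediate and light chains), -0.38, -0.26 (radial spokes), -0.43 (CFAP genes) and -0.11 (assembly factors). Relative to the median of all genes they were -0.042 (inner arm heavy chains), -0.11 (docking complex), -0.028 (central pair) and -0.11 (CFAP genes). With 1 CPM required in 4 libraries, which left out Armc4, the docking complex was at -0.12. With a mouse left out the radial spokes ran from -0.19 to -0.0014.

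Some estimates near 0 changed sign, and the cause was not tested. On log2(TPM + 1) and log2(TPM + 0.1) these were Ccdc114 (-0.051 and -0.068), Rsph9 (-0.047 and -0.048), Spef2 (-0.015 and -0.018) and Cfap54 (-0.097 and -0.15). The medians of all genes tested on these scales were themselves at -0.14 and -0.16. On the authors' normalized counts Dnah3 was at 0.0045. With a mouse left out Dnah3 ran from -0.069 to 0.083, Dnaic2 from -0.090 to 0.054, Cfap69 from -0.077 to 0.0029, Ccdc39 from -0.083 to 0.043, Dnaaf1 from -0.18 to 0.074 and Cfap54 from -0.11 to 0.090.

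With the replicate number as a block, 4 members fell (Dnah6, Dnali1, Ccdc40 and Hydin), the median of the members was -0.18, 1828 genes were called, and Dnaic1 had an adjusted p of 0.077 (edgeR). Labels give no shared litter or batch for a number, and not every mouse correlated best with its own number. The alternative without overlapping exons, that without robust estimation, the left-out mice for genes of the other lists and that relative to the median of all genes were chosen after seeing the data. With 5 to 18 counts a library, Armc4, Dnaaf1 and Spag17 had SEs of 0.28 to 0.34, and even the -0.62 of Armc4 and of Spag17 was not detectable as a difference at this depth.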
